A study of Homo sapiens with 15 samples.

Results

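Laminins, nidogens and the basement membrane proteoglycans were followed here through 10 genes, chosen by symbol, with earlier results of these data known. They are the laminin chains LAMA1, LAMA5, LAMB1, LAMB2 and LAMC1, the nidogens NID1 and NID2, the proteoglycan core proteins HSPG2 (perlecan) and AGRN (agrin), and DAG1, which encodes dystroglycan. All 10 symbols were matched to Ensembl identifiers through GENCODE v29, they are 10 of the 58735 genes in the deposited tables, and all 10 passed the filter on low values.

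A basement membrane is a thin sheet of matrix on which epithelial and other cells sit. A laminin molecule is made of 1 alpha, 1 beta and 1 gamma chain, and laminins assemble into a network at the cell surface. Nidogens link that network to type IV collagen, perlecan and agrin bring heparan sulfate chains to it, and dystroglycan and integrins are the receptors that hold it to the cell. In kidney, laminin chains are exchanged for one another as the organ forms.

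The study asked which genes, when knocked out in supporting cells, let neighbouring tumour cells survive anticancer drugs. RNA was sequenced from HEK293T cells, a human embryonic kidney cell line, in 5 groups of 3 libraries each, 15 libraries in all. Non-target was a HEK293T clone that carried the lentiCRISPRv2 vector with a guide that has no target. The other groups were HEK293T clones (CRISPR knockout, CKO) whose guide was directed at 1 gene: C9orf89 (now named CARD19) in C9orf89-CKO, then MAGI2-CKO, MLPH-CKO, and RHBDD2-CKO, each named for its target. The cells of all groups thus carried the vector and had been selected with puromycin, and the cells sequenced were not described as treated with a drug. Each group was 1 clone made by limiting dilution, and its 3 libraries came from 3 wells. The p-values below therefore measure the spread between wells, not between independent clones, and all 4 comparisons with Non-target share the same 3 control libraries. Levels are FPKM, fragments scaled to exon length and library depth, so that levels of genes of different length can be set side by side.

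Sequence from the 250 bases before the RefSeq start of transcription is given for 4 of the genes. LAMB1, LAMC1 and NID1 are shown because they were lower in all 4 clones, and NID2 because it is the paralogue of NID1 and did not follow it. RefSeq promoters (GRCh38.p14) were matched for 8 of the 10 genes, LAMA5, LAMB1, LAMB2, LAMC1, NID1, NID2, HSPG2 and DAG1. The bases lie outside the GENCODE v29 gene and read 5′ to 3′ on the strand of the gene. They are chr7:108003256-108003411 on the minus strand for LAMB1, chr1:183023220-183023419 on the plus strand for LAMC1, chr1:236065163-236065340 on the minus strand for NID1 and chr14:52069229-52069309 on the minus strand for NID2. Capitals mark the GC box (GGGCGG or CCGCCC) and the CCAAT box (CCAAT or ATTGG), searched on both strands.
LAMB1: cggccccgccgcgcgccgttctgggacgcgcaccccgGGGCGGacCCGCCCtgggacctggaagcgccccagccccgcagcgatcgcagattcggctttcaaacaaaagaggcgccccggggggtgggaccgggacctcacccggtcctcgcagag
LAMC1: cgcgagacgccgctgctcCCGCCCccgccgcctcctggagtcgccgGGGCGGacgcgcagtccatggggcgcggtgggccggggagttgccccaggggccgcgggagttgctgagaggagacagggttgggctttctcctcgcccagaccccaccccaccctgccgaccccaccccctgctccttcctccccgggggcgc
NID1: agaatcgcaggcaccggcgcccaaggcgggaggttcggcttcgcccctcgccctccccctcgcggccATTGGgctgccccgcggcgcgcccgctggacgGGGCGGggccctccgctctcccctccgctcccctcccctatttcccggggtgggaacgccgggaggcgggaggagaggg
NID2: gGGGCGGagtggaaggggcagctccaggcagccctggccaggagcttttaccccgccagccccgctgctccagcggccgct
The GC box was found within 250 bases before the start in 8 of these 8 genes, against 42.6% of 35116 RefSeq promoters. The CCAAT box was found in 3 of 8 (DAG1, NID1 and NID2), against 32.0%, and the TATA box (TATAAA or TTTATA) in 0 of 8, against 10.7%. The GC content of the 250 bases was 70.4% for LAMB1, 79.6% for LAMC1, 76.4% for NID1 and 68.0% for NID2, with a median of 58.0% over all promoters. The motifs were counted over all 250 bases, of which the stretches above are only a part. For NID2 the 81 bases shown are those farthest from the RefSeq start, and 2 of its 3 GC boxes and both of its CCAAT boxes lie nearer to the start, in bases not shown. Of the 4 GC boxes of LAMB1 and the 3 of LAMC1, 2 each are shown. No searched motif contains another, and a match describes the letters only.

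The fragments on genes came to between 15517856 and 19489918 in a library. The counts behind the levels of the 10 genes ran from 96 fragments for HSPG2 in the library where it was lowest to 6673 for NID1 in the library where it was highest. Differences were tested with limma on log2(FPKM + 0.1), with Benjamini-Hochberg adjustment over 16175 genes for each comparison. An adjusted p under 0.05 is called past the threshold. Every fold and log2 fold change below is taken from log2(FPKM + 0.1), which understates the change of low genes. A fold is therefore not the ratio of the FPKM levels printed beside it.

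The genes targeted by the guides were looked at first. RHBDD2 was at 11.2, 12.4 and 13.5 FPKM in its own clone, from lowest to highest, against 27.4, 34.9 and 38.1 FPKM in Non-target, a log2 fold change of -1.42 ± 0.14 (SE, limma adjusted p = 7.56e-06). It was also lower in MAGI2-CKO, by a log2 fold change of -1.27 ± 0.14 (adjusted p = 1.55e-05). CARD19 was lower in C9orf89-CKO by -0.58 ± 0.10 on the log2 scale (adjusted p = 0.000977), and also in RHBDD2-CKO by -0.44 ± 0.10 (adjusted p = 0.00489). MAGI2 was below the filter in every group, at 0.052 to 0.090 FPKM in MAGI2-CKO and 0.102 to 0.123 FPKM in Non-target. The other clones were also low, at 0.058 to 0.109 FPKM, and overlapped MAGI2-CKO. MLPH had 0 fragments in all 15 libraries, which allows up to 3 fragments a library, so its RNA checks no label. The level of an RNA does not show whether its reading frame was disrupted.

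Markers of the cell line were present. Of 5 markers of HEK293T cells, VIM, KRT8, KRT18, NEFL and NEFM, all 5 were tested, and their summed level ran from 63.1 to 174 FPKM in a library, with VIM as the most abundant gene (40.1 to 87.9 FPKM). The median of the sum was 111 FPKM in Non-target and 128, 117, 172 and 65.6 FPKM in the clones as listed above, and its part in the results below was not tested. The 5 markers moved in both directions. NEFM was at 0 to 0.071 FPKM in MAGI2-CKO and 0.96 to 1.89 FPKM in RHBDD2-CKO against 21.4 to 38.4 FPKM in Non-target. NEFL was at 0.90 to 1.14 FPKM in RHBDD2-CKO against 16.8 to 20.5 FPKM in Non-target, and rose in the other 3 clones (log2 fold changes 0.36 to 0.89), as did VIM (0.60 to 0.86). KRT8 rose in MLPH-CKO (1.57) and fell in C9orf89-CKO (-0.93) and MAGI2-CKO (-0.45), and KRT18 rose in MLPH-CKO (0.42). Of 13 myeloid markers, which would show U937 cells, 1 passed the filter, ITGB2 at no more than 0.79 FPKM, and their summed level was at most 1.28 FPKM. ITGB2 was highest in MAGI2-CKO, at 0.55 to 0.79 FPKM, the only group where it reached the filter of 0.5 FPKM. It was at 0.14 to 0.23 FPKM in Non-target and 0.24 to 0.45 FPKM in C9orf89-CKO. MLPH-CKO had 0.39 to 0.44 FPKM and RHBDD2-CKO 0.17 to 0.33 FPKM. Of 9 fibroblast markers, 2 passed, COL1A1 and COL3A1, with COL1A1 the most abundant at up to 5.42 FPKM. Since these are bulk samples, fewer cells of a kind and less RNA per cell cannot be told apart.

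Replicate 1 stood apart within its group. The chi-square per gene between libraries lay between 2.46 and 7.05 for replicates 2 and 3, while any pair that held replicate 1 gave 15.95 to 27.4. Transcripts rich in G and C were lower in replicate 1. In genes with at least 60% GC, the median log2 difference of replicate 1 from the mean of the other two was -0.24 in Non-target and -0.083, -0.25, -0.19 and -0.28 in the clones. AGRN (67.5% GC), LAMA5 (66.4%), HSPG2 (64.5%) and LAMB2 (60.3%) are of this kind, while LAMC1 (48.7%) and LAMB1 (49.5%) are not. A low replicate 1 was not limited to these 4 genes. It was the lowest library in 5 groups for NID1 (51.7% GC) and DAG1 (55.05%) and in 4 for LAMB1. LAMB2 was higher in replicate 1 of C9orf89-CKO, by 0.18 on the log2 scale.

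The 10 genes were mostly lower in the clones than in Non-target. The clones are taken below in the order of their guides as listed above. In C9orf89-CKO, 6 of 10 passed the threshold, all 6 lower, where 26.0% of all tested genes passed and 13.1% were lower. MAGI2-CKO had 6 past the threshold, 5 lower and NID2 higher, against 36.1% of all genes in either direction and 19.1% lower. MLPH-CKO had 4, all lower, against 30.1% and 15.5%. RHBDD2-CKO had 6, all lower, against 34.1% and 16.7%.

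Of the 40 tests, 22 passed, and 21 of these were lower. LAMB1, LAMC1 and NID1 were lower past the threshold in all 4 clones (so were 527 of all tested genes, 3.26%), and LAMA5 and AGRN passed it in none. With the replicate number also in the fit (a replicate block), LAMA5 passed in MAGI2-CKO and AGRN in MLPH-CKO, as given below. The median log2 fold change of the 10 genes was -0.24, -0.46, -0.27 and -0.26 in the 4 clones, while the median of all tested genes was between -0.0063 and 0.00038. Clone and Non-target libraries did not overlap for 6, 7, 7 and 7 of the 10 genes in that order, where 39.7%, 46.8%, 41.1% and 44.2% of all tested genes did not. A test across the 5 groups (limma's moderated F) passed for 9 of the 10 genes, all but LAMA5, and for 61.0% of all genes.

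**Figure D1:**
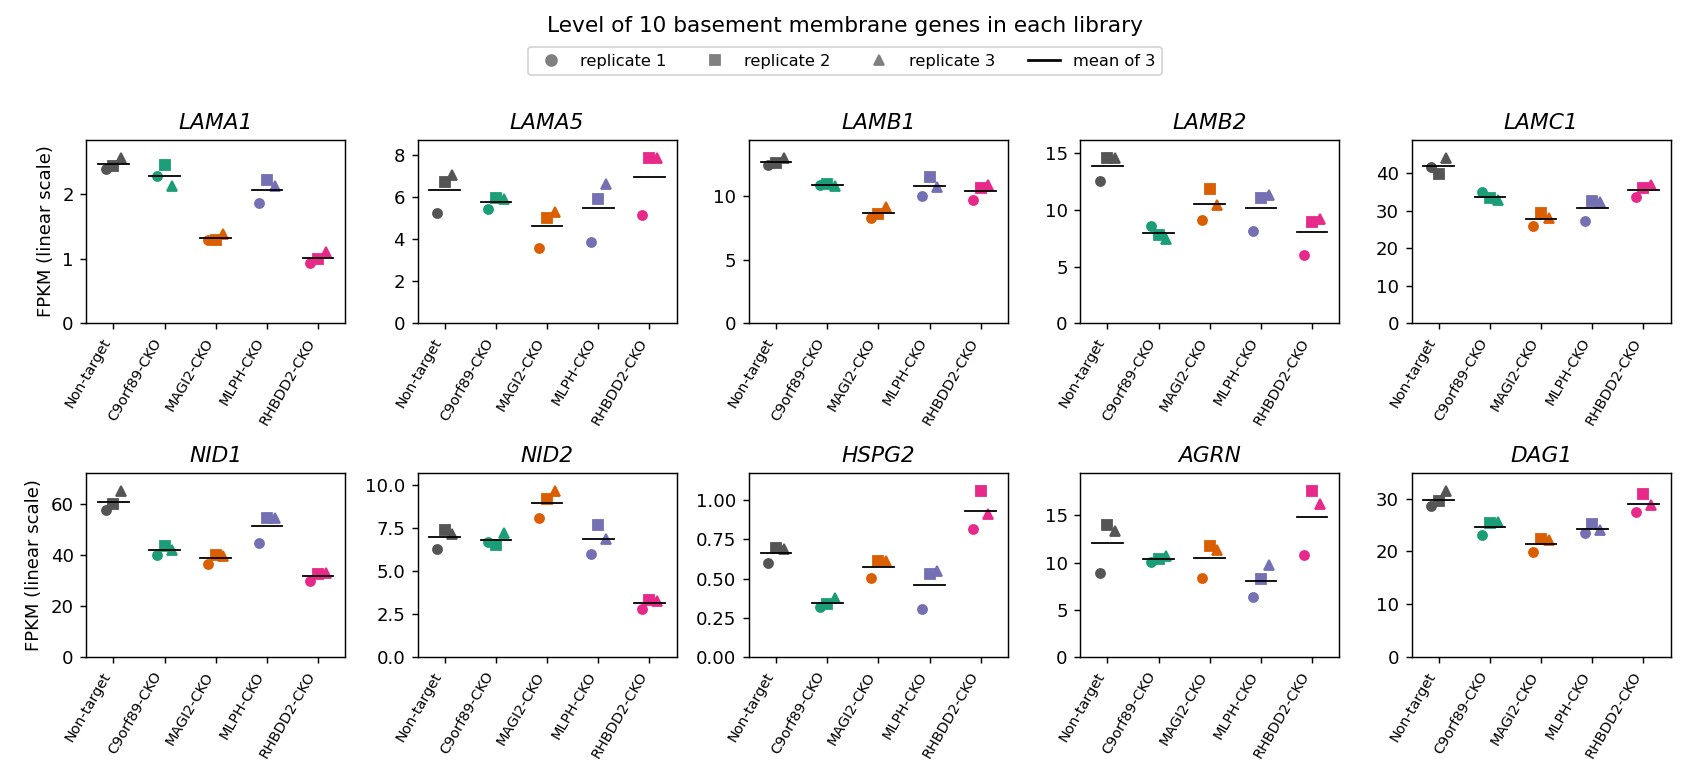
FPKM (linear axis from 0) of each of the 10 genes in the 15 libraries, grouped by clone, with a symbol for each replicate number and a line at the mean of 3. LAMB1, LAMC1 and NID1 lie below the Non-target libraries in every clone, NID2 is low in RHBDD2-CKO only, and the circles of replicate 1 lie low for LAMA5 and AGRN.

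Alpha chains give a laminin its receptor-binding end. LAMA1 (ENSG00000101680, chromosome 18, 6941744 to 7117814, minus strand, GRCh38), an early embryonic alpha chain, was the lower of the pair. Its level was 2.39, 2.43 and 2.55 FPKM in Non-target replicates 1, 2 and 3, an order kept for the values below, and C9orf89-CKO had 2.27, 2.44 and 2.12 FPKM. It was 1.29, 1.29 and 1.38 FPKM in MAGI2-CKO, 1.85, 2.22 and 2.13 FPKM in MLPH-CKO and 0.940, 0.993 and 1.096 FPKM in RHBDD2-CKO. Every RHBDD2-CKO library was thus below every MAGI2-CKO library, and both clones were below all others, while C9orf89-CKO overlapped Non-target. The fall was 2.31-fold in RHBDD2-CKO (log2 fold change -1.21 ± 0.093, SE, adjusted p = 1.26e-06, and -0.78 with a pseudocount of 1) and 1.80-fold in MAGI2-CKO (-0.85 ± 0.093, adjusted p = 1.75e-05). RHBDD2-CKO was also lower than MAGI2-CKO (-0.36 ± 0.093, limma adjusted p = 0.00777, and 0.0518 with those 6 libraries alone), a difference of -0.21 with a pseudocount of 1. In MLPH-CKO the 3 libraries lay below Non-target without passing the threshold (-0.24 ± 0.093, adjusted p = 0.0675). There LAMA1 passed with quantile normalization (limma adjusted p = 0.0275), with no trend (0.0404) and with voom (0.0294). In C9orf89-CKO the value was -0.11 ± 0.093 (adjusted p = 0.449), and -0.15 to -0.059 without 1 library (-0.059 without C9orf89-CKO replicate 3).

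LAMA5 (ENSG00000130702, chromosome 20, 62307955 to 62367312, minus strand) encodes the alpha chain of mature kidney basement membranes. It was at 5.26, 6.73 and 7.09 FPKM in Non-target, and at 5.16, 7.88 and 7.88 FPKM in RHBDD2-CKO. MAGI2-CKO had the lowest levels, 3.61, 5.03 and 5.31 FPKM, beside 5.45, 5.96 and 5.94 FPKM in C9orf89-CKO and 3.88, 5.92 and 6.65 FPKM in MLPH-CKO. Replicate 1 was the lowest library of all 5 groups, and each clone overlapped Non-target. The log2 fold changes ran from -0.45 ± 0.22 in MAGI2-CKO (adjusted p = 0.126) to 0.12 ± 0.22 in RHBDD2-CKO (adjusted p = 0.720). Without 1 library that of MAGI2-CKO ran from -0.58 to -0.28, the latter without MAGI2-CKO replicate 1. With the replicate block the value in MAGI2-CKO was still -0.45 and passed the threshold (limma adjusted p = 0.00346). LAMA5 overlaps ADRM1 on the opposite strand, which was at a mean of 50.5 FPKM, and the library kit does not mark strand.

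LAMA1 made up 31.2%, 26.5% and 26.5% of the summed FPKM of LAMA1 and LAMA5 in Non-target, and 15.4%, 11.2% and 12.2% in RHBDD2-CKO. The shares of these groups did not overlap, and their means differed by -15.1 percentage points. In MAGI2-CKO the share was 26.3%, 20.4% and 20.6%, a difference of -5.61 points. The exact permutation test (two-sided) gave p = 0.1 for both, the smallest that 3 libraries against 3 allow (adjusted over 4 clones, 0.2). In C9orf89-CKO and MLPH-CKO the mean share was 28.3% and 27.9%, beside 28.1% in Non-target.

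Beta chains form the laminin coiled coil with the alpha and gamma chains. LAMB1 (ENSG00000091136, chromosome 7, 107923799 to 108003255, minus strand), the widely used beta chain, was at 12.4, 12.5 and 12.95 FPKM in Non-target. C9orf89-CKO had 10.9, 10.9 and 10.8 FPKM, and MAGI2-CKO 8.23, 8.56 and 9.14 FPKM. MLPH-CKO had 9.99, 11.5 and 10.7 FPKM, and RHBDD2-CKO 9.64, 10.6 and 10.8 FPKM. No library of any clone reached the lowest Non-target library, and those of MAGI2-CKO were below all others. The log2 fold change was -0.54 ± 0.063 in MAGI2-CKO (SE, limma adjusted p = 2.81e-05). RHBDD2-CKO followed with -0.29 ± 0.063 (adjusted p = 0.00383). The change was smaller in MLPH-CKO (-0.24 ± 0.063, adjusted p = 0.0132) and C9orf89-CKO (-0.22 ± 0.063, adjusted p = 0.0232).

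The smaller changes of LAMB1 rested on the full set of libraries. In C9orf89-CKO the adjusted p was 0.0505 without Non-target replicate 2, 0.0804 without Non-target replicate 3, and 0.0513, 0.0565 and 0.0617 without C9orf89-CKO replicates 1, 2 and 3. In MLPH-CKO it was 0.0507 without Non-target replicate 3 and 0.0519 without MLPH-CKO replicate 1. With the 6 libraries of that contrast alone the value was still -0.24 (limma adjusted p = 0.0517). The changes in MAGI2-CKO and RHBDD2-CKO stayed past the threshold in all 25 other settings. LAMB1 overlaps DLD on the opposite strand, at a mean of 27.4 FPKM.

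LAMB2 (ENSG00000172037, chromosome 3, 49121114 to 49133118, minus strand) encodes the beta chain of the glomerular and synaptic basement membranes. Its levels in Non-target were 12.6, 14.6 and 14.6 FPKM. They were 8.60, 7.80 and 7.40 FPKM in C9orf89-CKO and 6.04, 8.98 and 9.18 FPKM in RHBDD2-CKO, both well below every Non-target library. MAGI2-CKO, with 9.14, 11.9 and 10.5 FPKM, and MLPH-CKO, with 8.18, 11.0 and 11.3 FPKM, were also below Non-target. MLPH-CKO overlapped both of the former clones, and MAGI2-CKO overlapped RHBDD2-CKO but not C9orf89-CKO. The log2 fold change was -0.80 ± 0.16 in both RHBDD2-CKO and C9orf89-CKO, a 1.74-fold fall (limma adjusted p = 0.00243 and 0.0032). In MAGI2-CKO it was -0.41 ± 0.16 (adjusted p = 0.0709) and in MLPH-CKO -0.46 ± 0.16 (adjusted p = 0.0518). With RHBDD2-CKO replicate 1 left out of the shared estimate of the spread, these 2 passed (adjusted p = 0.0256 and 0.0173), and that of MAGI2-CKO also passed without MLPH-CKO replicate 1 (0.0478). Both passed with the replicate block as well (limma adjusted p = 0.0205 in MAGI2-CKO and 0.0131 in MLPH-CKO).

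LAMB1 was 49.7%, 46.2% and 47.0% of the summed FPKM of LAMB1 and LAMB2 in Non-target. Its share was higher in C9orf89-CKO, at 55.8%, 58.2% and 59.3%, and in RHBDD2-CKO, at 61.5%, 54.0% and 54.1%, with no overlap in either. The mean difference was 10.2 and 8.91 percentage points (exact permutation test, p = 0.1 for each, adjusted over 4 clones 0.2). MAGI2-CKO, at 47.4%, 41.9% and 46.6%, and MLPH-CKO, at 55.0%, 50.9% and 48.6%, overlapped Non-target (exact p = 0.5 and 0.2).

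LAMC1 (ENSG00000135862, chromosome 1, 183023460 to 183145592, plus strand) encodes the gamma chain shared by most laminins, and it was the most abundant of the 5 chains. Non-target had 41.6, 39.6 and 44.0 FPKM, MAGI2-CKO 26.0, 29.3 and 28.2 FPKM and C9orf89-CKO 35.1, 33.2 and 32.9 FPKM. MLPH-CKO had 27.3, 32.5 and 32.2 FPKM, and RHBDD2-CKO 33.6, 36.0 and 36.9 FPKM. All 12 clone libraries were below the lowest Non-target library. The fall was deepest in MAGI2-CKO (log2 fold change -0.58 ± 0.075, limma adjusted p = 5.88e-05) and MLPH-CKO (-0.45 ± 0.075, adjusted p = 0.00067). RHBDD2-CKO had a value of -0.23 ± 0.075 (adjusted p = 0.0296), and C9orf89-CKO one of -0.31 ± 0.075 (adjusted p = 0.00886).

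In RHBDD2-CKO the call of LAMC1 was lost without Non-target replicates 1 or 3 (adjusted p = 0.0574 and 0.111), without RHBDD2-CKO replicates 1 or 2 (0.0957 and 0.0568) and after quantile normalization, where the value was -0.12 (0.315). In C9orf89-CKO it was lost after quantile normalization (adjusted p = 0.0901). LAMC1-AS1, on the opposite strand, was at a mean of 0.51 FPKM.

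Summed over the 5 laminin chains, the level was 74.3, 75.9 and 81.2 FPKM in Non-target. It was 62.2, 60.3 and 59.1 FPKM in C9orf89-CKO, 48.3, 56.1 and 54.5 FPKM in MAGI2-CKO, 51.2, 63.1 and 63.0 FPKM in MLPH-CKO and 55.4, 64.5 and 65.9 FPKM in RHBDD2-CKO. Every clone library was below every Non-target library, with an exact permutation p of 0.1 in each clone, the smallest possible. The mean difference was between -24.2 FPKM in MAGI2-CKO and -15.2 FPKM in RHBDD2-CKO, and LAMC1 carried the larger part of the sum.

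**Figure D2:**
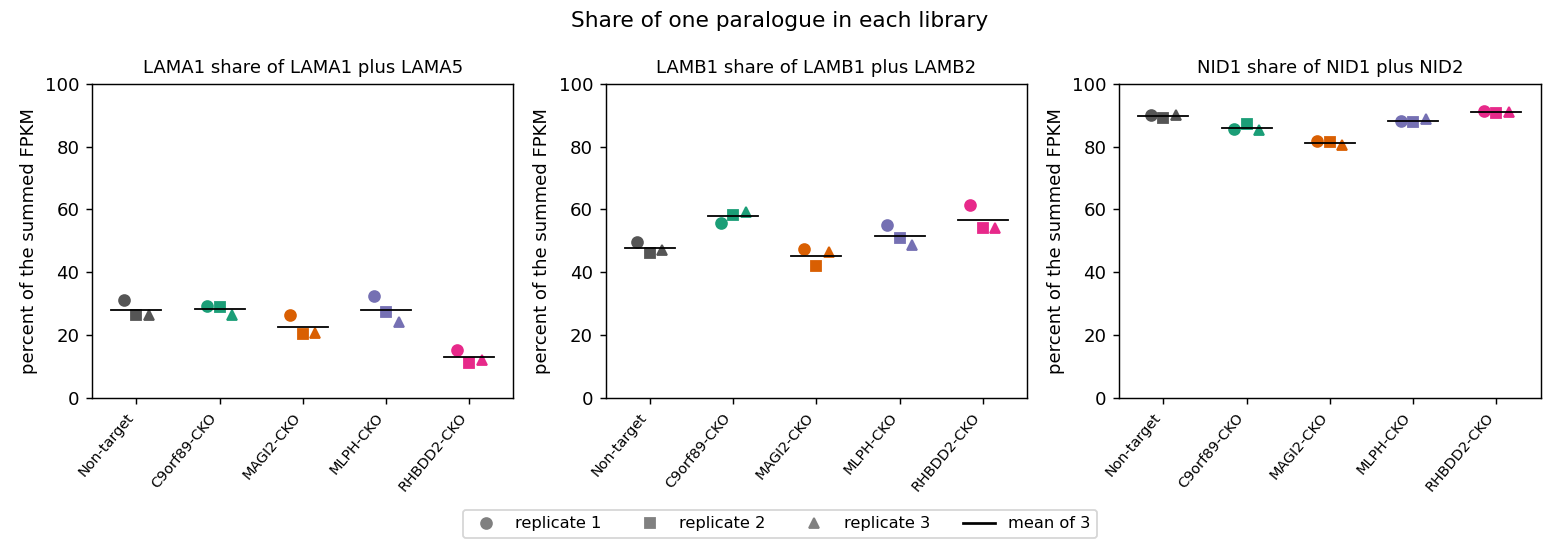
Percent of the summed FPKM taken by LAMA1 (of LAMA1 and LAMA5), LAMB1 (of LAMB1 and LAMB2) and NID1 (of NID1 and NID2) in each library, on axes from 0 to 100, with a line at the mean of 3. The LAMA1 share falls to 11.2% to 15.4% in RHBDD2-CKO, and the NID1 share to 80.5% to 81.7% in MAGI2-CKO.

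Nidogens are the rod-like linkers of the basement membrane, and in mice either can largely stand in for the other. NID1 (ENSG00000116962, chromosome 1, 235975830 to 236065162, minus strand) had the highest level of the 10 genes, 57.7, 59.8 and 64.8 FPKM in Non-target. It was at 40.1, 43.6 and 42.0 FPKM in C9orf89-CKO and at 36.2, 39.98 and 39.6 FPKM in MAGI2-CKO. MLPH-CKO had 44.8, 54.4 and 54.4 FPKM, and RHBDD2-CKO 29.7, 32.5 and 32.8 FPKM. The order from high to low was Non-target, MLPH-CKO, C9orf89-CKO, MAGI2-CKO and RHBDD2-CKO. No neighbours in this order overlapped, although the difference between MAGI2-CKO and C9orf89-CKO did not pass the threshold (log2 fold change -0.12 ± 0.082, limma adjusted p = 0.343).

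Against Non-target, NID1 fell 1.92-fold in RHBDD2-CKO (-0.94 ± 0.082, adjusted p = 3.19e-06), 1.57-fold in MAGI2-CKO (-0.65 ± 0.082, adjusted p = 4.82e-05) and 1.45-fold in C9orf89-CKO (-0.54 ± 0.082, adjusted p = 0.000401). For MLPH-CKO the log2 fold change was -0.25 ± 0.082 (adjusted p = 0.0336). That call was lost without Non-target replicate 2 (adjusted p = 0.0622), without Non-target replicate 3 (0.129), without MLPH-CKO replicate 1, where the value was -0.16 (0.123), and in 3 other settings, with a highest adjusted p of 0.202.

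NID2 (ENSG00000087303, chromosome 14, 52004803 to 52069228, minus strand) took another course. The 3 Non-target libraries had 6.29, 7.39 and 7.17 FPKM, C9orf89-CKO 6.71, 6.51 and 7.18 FPKM and MLPH-CKO 5.998, 7.67 and 6.83 FPKM, so that these 3 groups overlapped. MAGI2-CKO was above all of them, at 8.09, 9.17 and 9.63 FPKM, and RHBDD2-CKO below, at 2.79, 3.33 and 3.25 FPKM. The fall in RHBDD2-CKO was 2.19-fold (log2 fold change -1.13 ± 0.10, adjusted p = 5.03e-06). In MAGI2-CKO NID2 was the only one of the 10 genes past the threshold upward (0.36 ± 0.10, adjusted p = 0.0154), a call lost without Non-target replicate 1 (0.0626) and without MAGI2-CKO replicates 2 or 3 (0.0510 and 0.0634). RTRAF, on the opposite strand, overlaps NID2 and was at a mean of 17.6 FPKM.

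NID1 was 90.2%, 89% and 90.05% of the summed FPKM of both nidogens in Non-target and 81.7%, 81.3% and 80.5% in MAGI2-CKO, where NID1 was lower and NID2 higher. In RHBDD2-CKO both were lower and the share was 91.4%, 90.7% and 91.0%. C9orf89-CKO had a mean share of 86.0% and MLPH-CKO of 88.2%. The shares of each clone and Non-target did not overlap (exact permutation test, p = 0.1 in each, the smallest possible), with mean differences from -8.57 to 1.30 percentage points.

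Perlecan and agrin are large secreted core proteins with heparan sulfate chains. HSPG2 (ENSG00000142798, chromosome 1, 21822245 to 21937297, minus strand) had the lowest level of the 10 genes, 0.60, 0.70 and 0.69 FPKM in Non-target. C9orf89-CKO had 0.32, 0.34 and 0.38 FPKM, all below the filter of 0.5 FPKM that the gene passed in other groups, and RHBDD2-CKO had 0.82, 1.06 and 0.91 FPKM. MAGI2-CKO, with 0.51, 0.61 and 0.61 FPKM, overlapped Non-target, and MLPH-CKO, with 0.31, 0.53 and 0.55 FPKM, did not. HSPG2 was lower in C9orf89-CKO (log2 fold change -0.77 ± 0.20, limma adjusted p = 0.0113, and -0.30 with a pseudocount of 1) and did not pass the threshold in the other clones, although RHBDD2-CKO lay above every Non-target library (0.43 ± 0.20, adjusted p = 0.109). In RHBDD2-CKO the value ran from 0.21 to 0.51 over the other settings, and it passed with voom (0.48, limma adjusted p = 0.0318). In MLPH-CKO HSPG2 passed with quantile normalization (adjusted p = 0.0389), with no trend (0.0482) and with voom (0.03). RHBDD2-CKO and C9orf89-CKO differed 2.30-fold (log2 difference 1.20 ± 0.20, adjusted p = 0.000493), with a log2 difference of 0.52 (with a pseudocount of 1) to 1.41 in the other settings.

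AGRN (ENSG00000188157, chromosome 1, 1020123 to 1056118, plus strand), which also clusters acetylcholine receptors at the neuromuscular junction, was at 8.88, 14.0 and 13.3 FPKM in Non-target. RHBDD2-CKO had the highest levels, 10.8, 17.6 and 16.2 FPKM, and MLPH-CKO the lowest, 6.31, 8.26 and 9.69 FPKM. C9orf89-CKO had 10.1, 10.4 and 10.7 FPKM, and MAGI2-CKO 8.39, 11.8 and 11.4 FPKM. Replicate 1 was the lowest library of every group, by 0.62 on the log2 scale in Non-target and by 0.069 in C9orf89-CKO against the mean of the other two. No clone passed the threshold against Non-target (log2 fold changes -0.57 to 0.29, lowest adjusted p = 0.0687, in MLPH-CKO), and RHBDD2-CKO was 1.81-fold above MLPH-CKO (0.86 ± 0.22, adjusted p = 0.00775). The 0.29 is that of RHBDD2-CKO, and it ran from 0.087 (without Non-target replicate 1) to 0.51 (without RHBDD2-CKO replicate 1). In MLPH-CKO the value passed without Non-target replicate 1 (-0.77, adjusted p = 0.0206) and without RHBDD2-CKO replicate 1 (adjusted p = 0.0400). It also passed there with the replicate block (limma adjusted p = 0.00191) and with voom (0.0427).

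DAG1 (ENSG00000173402, chromosome 3, 49468703 to 49535618, plus strand) encodes both subunits of dystroglycan, the receptor that binds laminins, perlecan and agrin through its sugar chains. Non-target had 28.6, 29.5 and 31.4 FPKM and RHBDD2-CKO 27.5, 30.9 and 28.9 FPKM, which overlapped. C9orf89-CKO had 23.2, 25.4 and 25.5 FPKM, MAGI2-CKO 19.96, 22.3 and 22.1 FPKM and MLPH-CKO 23.5, 25.2 and 24.0 FPKM, all below both of those groups. DAG1 was lower in MAGI2-CKO (log2 fold change -0.47 ± 0.066, adjusted p = 0.000119), MLPH-CKO (-0.30 ± 0.066, adjusted p = 0.0045) and C9orf89-CKO (-0.27 ± 0.066, adjusted p = 0.0091), and each of these stayed past the threshold in all 25 other settings. In RHBDD2-CKO the value was -0.037 ± 0.066 (adjusted p = 0.706). RHBDD2-CKO was above each of the other clones, by 0.44 ± 0.066 against MAGI2-CKO, 0.26 ± 0.066 against MLPH-CKO and 0.23 ± 0.066 against C9orf89-CKO (limma adjusted p = 0.000176, 0.00773 and 0.0179). The last of these was lost without C9orf89-CKO replicate 1 (adjusted p = 0.0685), without RHBDD2-CKO replicate 2 (0.0783) and with the 6 libraries of the contrast alone (0.0581).

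**Figure D3:**
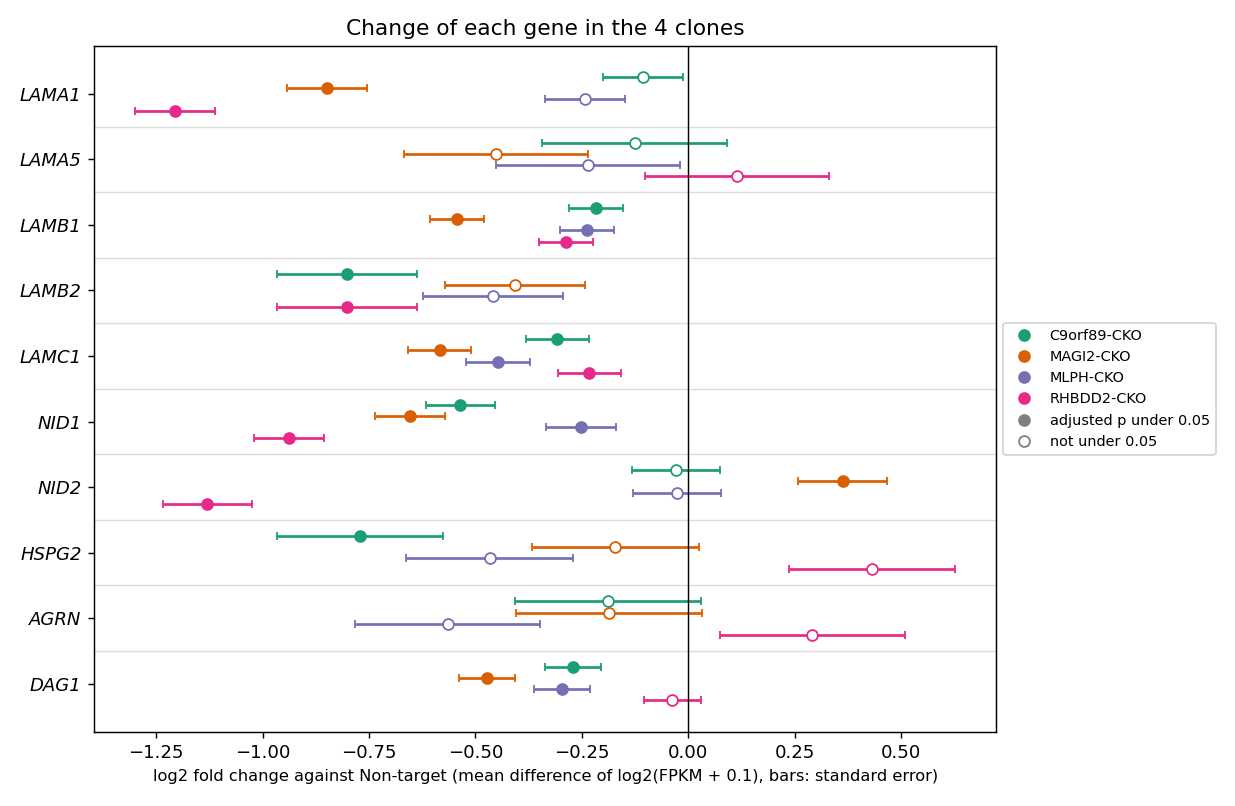
Log2 fold change of each gene against Non-target in the 4 clones (x axis, mean difference of log2(FPKM + 0.1)), with bars of 1 standard error and filled points where the adjusted p is under 0.05. LAMB1, LAMC1 and NID1 have filled points left of 0 in all 4 clones, and NID2 lies on both sides of 0, at -1.13 in RHBDD2-CKO and 0.36 in MAGI2-CKO.

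The clones also differed from one another. Between 2 clones, 30 of 60 tests of the 10 genes passed the threshold. RHBDD2-CKO differed from MAGI2-CKO in 7 of the 10 genes (41.6% of all tested genes), from MLPH-CKO in 7 (37.0%) and from C9orf89-CKO in 5 (29.3%). MAGI2-CKO and C9orf89-CKO differed in 6 (22.5%), MLPH-CKO and MAGI2-CKO in 4 (21.2%) and MLPH-CKO and C9orf89-CKO in 1, NID1 (14.2%). That call of NID1 was lost without any 1 of the C9orf89-CKO replicates (adjusted p = 0.0989, 0.0581 and 0.085) and without MLPH-CKO replicates 2 or 3 (0.127 and 0.129). Across the 6 pairs, LAMA1, NID1 and NID2 passed in 5 each, HSPG2 and DAG1 in 4, LAMB1 and LAMC1 in 3, AGRN in 1, and LAMA5 and LAMB2 in 0.

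With replicates 2 and 3 alone, a setting chosen after seeing the data, 7 of the 10 genes passed in C9orf89-CKO (32.4% of all genes), 7 in RHBDD2-CKO (42.0%), 9 in MAGI2-CKO (40.4%) and 6 in MLPH-CKO (36.9%). AGRN then passed in all 4 clones, lower in C9orf89-CKO (-0.37, adjusted p = 0.0110), MAGI2-CKO (-0.24, adjusted p = 0.0471) and MLPH-CKO (-0.60, adjusted p = 0.00107) and higher in RHBDD2-CKO (0.30, adjusted p = 0.0189). LAMA5 passed in MAGI2-CKO (-0.41, limma adjusted p = 0.00266), and LAMB2 passed in MAGI2-CKO and MLPH-CKO as well (-0.38 in both, adjusted p = 0.00262 and 0.00324). The part of GC content in these values was not tested.

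Clones of this line can differ in the copy number of whole chromosome segments, and the level of each gene was set beside the 100 tested genes nearest to it. LAMB1 in MAGI2-CKO had a log2 fold change of -0.54, and its neighbours a median of -0.49. Elsewhere the neighbours of LAMB1 were between -0.032 and 0.044, with LAMB1 at -0.22 to -0.29. NID2 in MAGI2-CKO was at 0.36 with neighbours at 0.26, and in RHBDD2-CKO at -1.13 with neighbours at 0.015. LAMB2 and DAG1 lie in the same region, where the medians were -0.31 and -0.32 in C9orf89-CKO and between -0.18 and -0.22 in the other clones. DAG1 was thus close to its neighbours in C9orf89-CKO (-0.27), while LAMB2 (-0.80) was lower than all but 4 of its 100 neighbours.

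Both proteoglycan genes lie among neighbours with medians above 0. Those of HSPG2 had medians of 0.51, 0.49, 0.44 and 0.48 in the 4 clones, and those of AGRN 0.41, 0.62, 0.49 and 0.47. HSPG2 was at -0.77 in C9orf89-CKO, where 1 of its 100 neighbours was lower, and at 0.43 in RHBDD2-CKO, where 47 were. AGRN was at -0.57 in MLPH-CKO with 2 of 100 neighbours lower. The neighbours of LAMC1 and NID1 had medians between -0.10 and 0.025 in the 4 clones, and those of LAMA1 between -0.17 and 0.046. Copy number was not measured, and its part in these values was not tested.

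**Figure D4:**
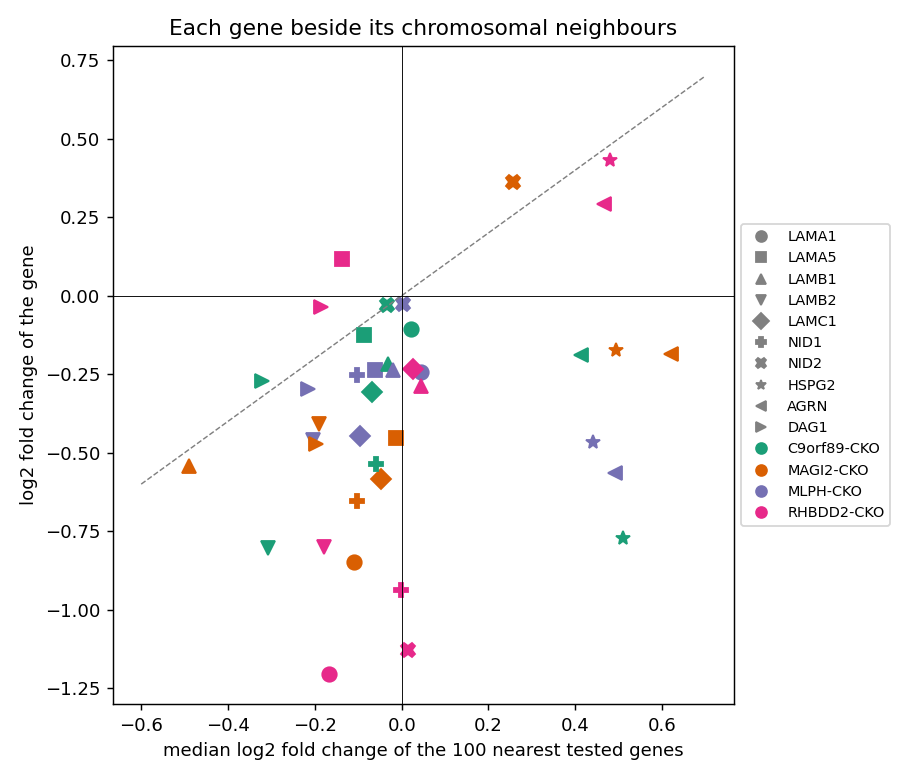
Log2 fold change of each gene against Non-target (y axis) beside the median log2 fold change of the 100 tested genes nearest to it on its chromosome (x axis), 1 point a gene and clone, with a dashed line where both are equal. LAMB1 in MAGI2-CKO (-0.54 beside -0.49) and HSPG2 in RHBDD2-CKO (0.43 beside 0.48) lie close to the line, and LAMA1 (-1.21), NID2 (-1.13) and NID1 (-0.94) in RHBDD2-CKO lie far below it.

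LAMA1 and NID2 changed by a log2 fold change of 1 or more in a clone, and the genes with the most similar values over the 4 clones were sought among 12533 genes with a mean of at least 1 FPKM, by Euclidean distance. Nearest to LAMA1 were RAB39A (distance 0.163), MGST1 (0.199) and MT-TG (0.221). RAB39A, a small GTPase, was at -0.046, -0.73, -0.20 and -1.29 in the 4 clones. Near to NID2 were ZYX (0.166) and TMEM121 (0.186). ZYX, which encodes the focal adhesion protein zyxin, was at -0.019, 0.30, 0.11 and -1.06 in the same order. These are likenesses over 4 values that share their controls.

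The other genes of the basement membrane and its receptors were taken from 8 lists with 112 genes, of which 86 were tested. In C9orf89-CKO 34 passed the threshold (23 lower), in MAGI2-CKO 46 (34 lower), in MLPH-CKO 33 (24 lower) and in RHBDD2-CKO 48 (31 lower), where 26.0%, 36.1%, 30.1% and 34.1% of all tested genes passed. Their median log2 fold change was -0.11, -0.17, -0.14 and -0.17 in that order.

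Of 7 other laminin chains, 3 were tested, LAMA3, LAMA4 and LAMC3. LAMA4, the alpha chain of vessel walls, was at 2.78 to 3.07 FPKM in Non-target, 1.26 to 1.35 FPKM in C9orf89-CKO and 0.59 to 0.75 FPKM in MAGI2-CKO, without overlap. Its log2 fold change was -1.10 ± 0.11 in C9orf89-CKO and -1.94 ± 0.11 in MAGI2-CKO (limma adjusted p = 1.25e-05 and 5.80e-08). LAMC3, a gamma chain, rose in C9orf89-CKO from 1.62 to 2.10 FPKM in Non-target to 5.12 to 7.14 FPKM (1.70 ± 0.17, adjusted p = 1.52e-05), rose in MAGI2-CKO (0.59 ± 0.17, adjusted p = 0.017) and fell in RHBDD2-CKO (-0.94 ± 0.17, adjusted p = 0.00111).

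Type IV collagen is the other network of the basement membrane, which nidogens bind. Of 8 collagens 6 were tested, and 4, 5, 2 and 6 passed in the 4 clones in order, with 3, 4, 1 and 3 lower. The shares of all tested genes that passed were 26.0%, 36.1%, 30.1% and 34.1%. COL4A2 was at 7.45 to 7.75 FPKM in Non-target and 1.84 to 2.02 FPKM in RHBDD2-CKO (log2 fold change -1.93 ± 0.078, adjusted p = 3.28e-09), and its partner chain COL4A1 changed there by -0.79 ± 0.079 (adjusted p = 1.01e-05). COL4A4, also below a mean of 1 FPKM and chosen after its values were seen, rose in RHBDD2-CKO (1.39 ± 0.21, limma adjusted p = 0.000333) and fell in MAGI2-CKO (-0.91 ± 0.21, adjusted p = 0.00507). COL4A6, a chain of another type IV collagen, was higher in all 4 clones, as were 549 of all tested genes (3.39%), with log2 fold changes of 0.34 to 0.64.

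Among 20 other basement membrane proteins, 12 were tested, and 7, 9, 7 and 8 passed in the same order of clones, 5, 8, 6 and 6 of them lower. Beside these counts stand 26.0%, 36.1%, 30.1% and 34.1% of all tested genes. EGFLAM, which encodes the dystroglycan ligand pikachurin, and FBLN1, which encodes the matrix protein fibulin-1, were lower in all 4 clones, by -0.64 to -1.14 and -0.66 to -0.99 on the log2 scale. SPARC, a collagen-binding matrix protein, was at 18.2 to 21.3 FPKM in Non-target and at no more than 0.95 FPKM in any clone library. PXDN, the peroxidase that cross-links type IV collagen, was at 8.17 to 9.44 FPKM in Non-target and fell in MAGI2-CKO (-0.82 ± 0.080), MLPH-CKO (-1.40 ± 0.080) and RHBDD2-CKO (-1.69 ± 0.080, limma adjusted p = 1.38e-08).

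Laminin receptors moved in both directions. All 12 were tested, and 5, 7, 5 and 6 passed, of which 4, 3, 5 and 4 were higher. Among all tested genes 26.0%, 36.1%, 30.1% and 34.1% passed in either direction. ITGA7, an alpha subunit of laminin-binding integrins, was at 1.55 to 1.79 FPKM in Non-target and higher in all 4 clones (0.55 to 1.28 on the log2 scale), as was ITGB4, the beta subunit of hemidesmosomes (0.61 to 0.98). ITGA6 was lower in MAGI2-CKO (-0.71 ± 0.085, adjusted p = 3.27e-05) and higher in RHBDD2-CKO (0.73 ± 0.085, adjusted p = 3.54e-05). ITGB4 was low, at 0.29 to 0.83 FPKM over all libraries, on both sides of the filter of 0.5 FPKM. It passed that filter through clone libraries, where it was higher, so no conclusion is drawn from its rise.

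Dystroglycan is held inside the cell by the dystrophin complex. Of 14 genes of that complex 9 were tested, and 2, 4, 2 and 4 passed, all lower, counts that stand beside the same shares of all tested genes as above. The largest changes were those of SNTB1 and DMD, which are below a mean of 1 FPKM and were chosen after their values were seen. SNTB1, which encodes a syntrophin, was at 1.55 to 1.81 FPKM in Non-target, 0.098 to 0.120 FPKM in MAGI2-CKO and 0.270 to 0.286 FPKM in MLPH-CKO (log2 fold change -3.09 ± 0.14 and -2.23 ± 0.14, limma adjusted p = 9.12e-09 and 1.84e-07), and also fell in C9orf89-CKO (-1.03 ± 0.14). DMD, the gene of dystrophin itself, was at 1.12 to 1.26 FPKM in Non-target and fell in MAGI2-CKO (-1.25 ± 0.17), MLPH-CKO (-1.16 ± 0.17) and RHBDD2-CKO (-1.41 ± 0.17). DTNA, which encodes the alpha form of dystrobrevin, fell in RHBDD2-CKO (-0.66 ± 0.063, adjusted p = 7.50e-06) and MAGI2-CKO (-0.20 ± 0.063, adjusted p = 0.0271).

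The sugar chain that lets dystroglycan bind laminin is built by a series of enzymes. Of 18 such genes 17 were tested, and 6, 6, 5 and 6 passed, 5, 5, 4 and 3 of them lower. Over all tested genes 26.0%, 36.1%, 30.1% and 34.1% passed, so these counts are near the shares of all genes. LARGE2, which extends the end of the chain, was higher in RHBDD2-CKO (0.92 ± 0.17, adjusted p = 0.00135), C9orf89-CKO (1.01 ± 0.17, adjusted p = 0.000936) and MLPH-CKO (0.74 ± 0.17, adjusted p = 0.00603). POMGNT2, an early enzyme of the chain, was lower in all 4 clones (-0.37 to -0.61).

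Heparan sulfate, the sugar of perlecan and agrin, is made and edited by enzymes of which 19 of 22 were tested. In the order of clones used above, 5, 7, 9 and 12 passed, with 4, 5, 8 and 8 lower. All tested genes passed at shares of 26.0%, 36.1%, 30.1% and 34.1%. SULF1 and SULF2 remove sulfate groups at the cell surface. SULF1 was at 3.27 to 4.22 FPKM in Non-target and 0.60 to 0.75 FPKM in RHBDD2-CKO (-2.29 ± 0.12, limma adjusted p = 4.05e-08), and SULF2 was lower in all 4 clones (-0.20 to -0.85). HS6ST2, which adds sulfate to the chain, was also lower in all 4 (-0.37 to -0.99).

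Of 11 other heparan sulfate proteoglycans and agrin receptors 8 were tested, and 2, 5, 3 and 5 passed, 2, 2, 3 and 4 lower. The matching shares of all tested genes were 26.0%, 36.1%, 30.1% and 34.1%. Glypicans are proteoglycans tied to the membrane by a lipid. GPC3 was at 32.8 to 34.0 FPKM in Non-target, 14.0 to 16.0 FPKM in MAGI2-CKO and 10.3 to 11.4 FPKM in RHBDD2-CKO (-1.15 ± 0.070 and -1.62 ± 0.070, limma adjusted p = 1.19e-07 and 5.61e-09). GPC1 fell in RHBDD2-CKO (-1.58 ± 0.17, adjusted p = 1.63e-05), and GPC4 was lower in all 4 clones (-0.35 to -1.27).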

How the data were processed

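Total RNA of 3 wells a group was sequenced by the authors with a kit (NEBNext Ultra) that does not mark strand. Per the labels, HISAT2 2.0.5, featureCounts 1.5.0-p3 and DESeq2 were used, and the genome build is not given in the sources used here. The authors deposited 1 table a library with a value for each of 58735 genes, read as FPKM because the product of a value and the merged exon length in GENCODE v29 came out as a whole number of steps, the step being fixed for a library (100% of values within 0.01). The fragments recovered this way give a depth with a median of 17666063 a library. The 16175 genes that reached 0.5 FPKM in 3 or more libraries were fitted in 1 limma 3.58.1 model (R 4.3.3) over all 15 libraries, with a trend and a pseudocount of 0.1. Shares and sums were compared by exact permutation tests. The fit was tested on simulated data. Other settings were pseudocounts of 1 and 0.01, quantile normalization, no filter (32715 genes), a filter on a mean FPKM of 1 (12533 genes), no trend, 6 libraries of a contrast, a replicate block, voom on recovered fragments, each library left out and, chosen after seeing the data, replicates 2 and 3 alone. The genes and lists were chosen with earlier results of these data known. Besides the 10 genes and the knockout targets, the text names list genes past the threshold in 1 direction in all 4 clones or with the 2 largest changes among genes with a mean of at least 1 FPKM (at most 4 a list), and the 3 genes most like LAMA1 and NID2. Some genes that this rule names are not reported here. Protein sequences were not used here.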

Additional observations from a re-analysis of the deposited data

Results flagged for a closer look

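For 7 differences between clones, the 2 clones lay on opposite sides of Non-target and the difference itself passed the threshold in limma. For NID2 it was -1.49 in RHBDD2-CKO against MAGI2-CKO (adjusted p = 2.41e-07), 0.39 in MAGI2-CKO against C9orf89-CKO (adjusted p = 0.0165) and -0.39 in MLPH-CKO against MAGI2-CKO (adjusted p = 0.0173), all on the log2 scale. In these last 2 differences C9orf89-CKO and MLPH-CKO were within 0.028 of Non-target. Both differences were lost without MAGI2-CKO replicates 2 or 3, that with C9orf89-CKO also without its replicate 2 and that with MLPH-CKO without its replicate 1 (adjusted p = 0.0561 to 0.0714). For HSPG2, RHBDD2-CKO was above MAGI2-CKO by 0.60 (adjusted p = 0.0252, and 0.0819, 0.0924 and 0.058 without MAGI2-CKO replicate 1 and RHBDD2-CKO replicates 2 and 3), above MLPH-CKO by 0.90 (adjusted p = 0.00295) and above C9orf89-CKO by 1.20 (adjusted p = 0.000493). With a pseudocount of 1 these 3 differences of HSPG2, which is the lowest of the 10 genes, were 0.29, 0.40 and 0.52, and all 3 stayed past the threshold. For AGRN, RHBDD2-CKO was above MLPH-CKO by 0.86 (limma adjusted p = 0.00775), with neither past the threshold against Non-target.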

How the results depend on the processing

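Of the 22 changes past the threshold, 16 stayed past it in every other setting run and 6 lost it in at least 1, and none of them changed direction. The 6 are LAMB1 in C9orf89-CKO and MLPH-CKO, LAMC1 in C9orf89-CKO and RHBDD2-CKO, NID1 in MLPH-CKO and NID2 in MAGI2-CKO, and the cause was not tested. Of 18 changes not past the threshold, 10 passed it in some setting. Small values changed sign without 1 library: NID2 in C9orf89-CKO (range -0.098 to 0.017, above 0 without Non-target or C9orf89-CKO replicate 2) and in MLPH-CKO (-0.11 to 0.063, above 0 without Non-target replicate 2 or MLPH-CKO replicate 1), LAMA5 in RHBDD2-CKO (-0.014 to 0.32, below 0 without Non-target replicate 1) and DAG1 in RHBDD2-CKO (-0.081 to 0.0028, above 0 without Non-target replicate 3 or RHBDD2-CKO replicate 1, and 0.041 after quantile normalization). The number of the 10 genes past the threshold in MLPH-CKO was 4, and it was 2 with the 6 libraries of the contrast, 8 with voom and 2 to 6 without 1 library (2 without Non-target replicate 3 or MLPH-CKO replicate 1). Between MAGI2-CKO and C9orf89-CKO it was 6, and 3 to 7 without 1 library (3 without C9orf89-CKO replicate 2 or any MAGI2-CKO replicate). Between RHBDD2-CKO and C9orf89-CKO it was 5, and 8 with replicates 2 and 3. Between MLPH-CKO and C9orf89-CKO it was 1, and 0 with no filter, quantile normalization or the 6 libraries, 2 with the replicate block or with replicates 2 and 3, and 0 to 1 without 1 library. The difference in LAMA1 share ran from -0.59 to 1.78 points in C9orf89-CKO and from -2.32 to 1.74 points in MLPH-CKO without 1 library. Of 40 medians of neighbours, 2 changed sign with 40 neighbours in place of 100.

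Libraries with replicate number 1 deviated together (correlations of 0.128 to 0.312), while those with number 2 (0.00103 to 0.11) and number 3 (0.0559 to 0.166) did so less, and pairs of different numbers had a median of -0.0887. Since not every pair was above 0.1, the number was not taken as a pairing. With the replicate block, 6, 8, 6 and 6 of the 10 genes passed in the knockouts of C9orf89, MAGI2, MLPH and RHBDD2, and 5718, 7169, 6292 and 7036 of all genes. The block added LAMA5 (adjusted p = 0.00346) and LAMB2 (0.0205) in MAGI2-CKO and LAMB2 (0.0131) and AGRN (0.00191) in MLPH-CKO, and took none away. Depth limits HSPG2 most, with 96 to 324 fragments a library, and the filter on a mean of 1 FPKM removes it and gives no value.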

Other observations

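The laminin chains LAMA2, LAMB3 and LAMB4 were below the filter. LAMA2, the alpha chain of muscle, was at 0.324 to 0.355 FPKM in Non-target and at no more than 0.180 FPKM in any clone library, and no test was made. Of the fibroblast markers, COL3A1 was lower in all 4 clones, by -1.60 to -2.59 on the log2 scale, and COL1A1 was higher by 0.74 to 0.93 in the clones other than RHBDD2-CKO (limma adjusted p = 0.00739, 0.0011 and 0.00311). In C9orf89-CKO the 9 fibroblast markers summed to 4.23 to 4.45 FPKM, of which COL1A1 alone had 4.03 to 4.26 FPKM. COL3A1 was therefore below the filter of 0.5 FPKM in that clone and higher in Non-target, so no conclusion is drawn from its fall.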
